A study of Mus musculus with 4 samples.

Results

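The genes described here are 9 genes of death receptor signalling or linked to p53, out of 55487 gene identifiers in each table. The 9 are Fas, Tnfrsf10b, Eda2r, Tnfrsf1a, Perp, Pidd1, Fadd, Casp8 and Cflar. They were taken as a named list of death receptors, their adaptors and caspases, and membrane or adaptor genes linked to p53, matched by gene identifier to a GENCODE annotation of the mouse build GRCm38. All 9 matched, and all 9 averaged at least 1 CPM over the libraries, CPM being counts scaled to the size of the library. RNA sequencing measured them in primary cultured mouse astrocytes, labelled as glial cells, in 4 libraries with 1 library in each group. The groups were OASIS deficient with doxorubicin, OASIS deficient untreated, OASIS wild type with doxorubicin and OASIS wild type untreated. Creb3l1 encodes OASIS, a transcription factor anchored in the endoplasmic reticulum membrane, and the series asks what its loss changes in the response to DNA damage. Doxorubicin breaks DNA by trapping topoisomerase II. Cultures 5 days past confluence received 1 µg/ml of it for 1 h and stayed in medium without it for 24 h. The labels do not describe the deficient allele, the age of the animals or how many animals gave each culture, and nothing in them says that cultures of a genotype are separate animals.

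Death receptors of the TNF receptor superfamily carry an intracellular death domain that, once ligand has clustered the receptor, gathers the adaptor FADD and the initiator caspase-8 into a signalling complex at the membrane. Cellular FLIP, encoded by Cflar, is a caspase-8 homologue without protease activity that competes for the same complex and restrains it. Fas, the mouse TRAIL receptor gene Tnfrsf10b, Eda2r, Perp and Pidd1 are known from other systems as genes that p53 can activate. Astrocytes in culture are known to carry Fas and TNF receptors and to be largely resistant to killing through them.

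Total counts ran from 17481188 to 22559613 per library. Creb3l1 itself had 235 counts in deficient doxorubicin and 260 in deficient untreated, against 636 in wild type doxorubicin and 966 in wild type untreated, so it was lower in the deficient libraries and not absent (log2 fold change -1.46, SE 0.27, adjusted p = 0.000973). Whether the counted exons lie in the deleted part is not given. The p53 targets Cdkn1a and Mdm2 were also lower in the deficient libraries, with log2 fold changes of -2.86 and -2.26 (adjusted p = 6.58e-11 and 2.99e-09), while Trp53 itself was not called (log2 fold change -0.29, adjusted p = 0.187). The libraries do not carry the same sex chromosomes. Xist had 2742 and 2547 counts in the doxorubicin libraries and 0 and 1 in the untreated ones, and 4 genes of the Y chromosome (Ddx3y, Uty, Kdm5d and Eif2s3y) had 0 counts in both doxorubicin libraries and 353 to 1567 in the untreated ones. The treatment label and the sex of the culture cannot be told apart, and every doxorubicin comparison below is also a comparison of sexes. Cell type markers moved with genotype as well: 9 of 12 astrocyte markers, 11 of 12 oligodendrocyte lineage markers, 5 of 9 tested neuron markers and 22 of 22 mitosis genes were called higher in the deficient libraries by edgeR. In that order DESeq2 called 8, 9, 4 and 20 higher, and limma-voom 9, 11, 6 and 22, with 1 neuron marker lower by limma-voom. Of 12 neuron markers listed, 9 had the mean of at least 1 CPM needed for the test. Some markers, among them Dcx, Snap25, Gad1 and Mog, passed that filter only through deficient libraries, which favoured a higher call. The means of Snap25 and Gad1 were 1.306 and 1.125 CPM. Fibroblast markers had 0 of 11 called by edgeR (1 at an unadjusted p under 0.05, 0 by DESeq2 and 1 higher by limma-voom), endothelial markers 1 of 5 lower, ependymal markers 1 of 8 lower, and microglia markers 1 of 16 higher and 2 lower. The endothelial gene called, Tek, had 0 counts in both deficient libraries and passed the filter only through wild type. Over all genes tested, edgeR called 12.6% higher and 10.6% lower. The oligodendrocyte marker Mog had 70 and 58 counts in the deficient libraries and 0 in both wild type ones. Summed mitosis genes stood at 2298 and 1539 CPM in the deficient libraries, against 140.3 and 107.4 CPM in wild type. Gfap, the astrocyte filament gene, stood at 5168 and 6589 CPM against 1120 and 1140 CPM, so astrocytes were marked in all 4 libraries, although the astrocyte connexin gene Gjb6 had 0 counts in wild type untreated. Microglia markers summed to 1053 CPM in deficient doxorubicin against 1536 in deficient untreated, and to 1208 CPM in wild type doxorubicin against 1671 in wild type untreated.

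Promoter sequence from RefSeq (GRCm38.p6) was matched for 7 of the 9 genes, all but Tnfrsf10b and Perp, as the 250 bases before the annotated start. The windows of 3 genes that were lower in the deficient libraries and of Fas, which was not called, are shown so that the shared and differing letters near their starts can be seen. Capitals mark TATAAA, the TATA box, and GGGCGG, the GC box bound by SP1, on either strand, both chosen after the data were seen. Eda2r lies at chrX:97377210-97377459 on the minus strand, Pidd1 at chr7:141444026-141444275 on the minus strand, Cflar at chr1:58711241-58711490 on the plus strand and Fas at chr19:34290409-34290658 on the plus strand.
Eda2r: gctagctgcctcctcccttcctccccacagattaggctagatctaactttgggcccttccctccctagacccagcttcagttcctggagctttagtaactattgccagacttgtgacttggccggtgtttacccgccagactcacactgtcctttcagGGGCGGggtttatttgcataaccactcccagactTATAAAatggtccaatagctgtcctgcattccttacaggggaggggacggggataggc
Pidd1: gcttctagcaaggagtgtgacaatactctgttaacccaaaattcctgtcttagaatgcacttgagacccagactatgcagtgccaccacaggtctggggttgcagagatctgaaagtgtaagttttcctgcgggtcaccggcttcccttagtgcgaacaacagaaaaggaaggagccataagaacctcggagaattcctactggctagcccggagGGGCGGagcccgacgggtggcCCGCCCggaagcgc
Cflar: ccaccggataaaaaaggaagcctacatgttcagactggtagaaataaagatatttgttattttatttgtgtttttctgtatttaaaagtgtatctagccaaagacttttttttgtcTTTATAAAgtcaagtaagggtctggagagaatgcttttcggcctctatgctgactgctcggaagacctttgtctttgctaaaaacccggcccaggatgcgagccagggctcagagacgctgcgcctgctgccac
Fas: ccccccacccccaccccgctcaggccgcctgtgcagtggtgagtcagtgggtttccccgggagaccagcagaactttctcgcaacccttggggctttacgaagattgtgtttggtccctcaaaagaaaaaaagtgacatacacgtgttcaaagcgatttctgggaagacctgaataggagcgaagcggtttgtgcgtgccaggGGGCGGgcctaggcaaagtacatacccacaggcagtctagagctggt
In Eda2r the TATA letters begin 58 bases before the start and the GC box 92 bases before it, while Pidd1 has 2 GC boxes, at 35 bases and, on the reverse strand, at 14 bases. Cflar holds TATAAA on both strands, overlapping, at 132 and 134 bases, and Fas holds 1 GC box at 47 bases. Of the 7 windows, 2 held TATAAA (12.4% of 32851 windows of this length) and 4 held GGGCGG (32.7% of them). None of the 7 held the p53 decamer, allowing no mismatch (7.13% of all windows), or TGACGT, the core of the cAMP response element (6.47% of all windows), searched on both strands. The known p53 sites of such genes can lie outside a window of this size, so these counts describe these letters only.

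Between genotypes, 5 of the 9 genes were lower in the deficient libraries and 0 were higher: Perp, Eda2r, Pidd1, Tnfrsf10b and Cflar. The receptors Fas and Tnfrsf1a, the adaptor Fadd and the caspase Casp8 were not called. The test was edgeR's quasi-likelihood test in an additive model of genotype and treatment over all 4 libraries, with Benjamini-Hochberg adjustment over 15596 genes and a threshold of 0.05. Values given for an alternative or a left-out library came from that fit, and fits with 1 library left out had no term for the other label. The additive edgeR test over 4 libraries stands behind every other adjusted p below. In that test 10.6% of all genes were called lower, 12.6% higher and 23.2% in either direction. Each combination of genotype and treatment held 1 library, so no spread between replicates was measured. The p-values rest on 1 residual degree of freedom, with 14.3 prior degrees of freedom drawn from all genes. That residual is the departure from additivity, which also holds any dependence of one effect on the other. It speaks for these libraries alone, and any spread in it may be technical. The median log2 fold change of the 9 genes was -0.977, beside -0.007 over all genes tested. DESeq2 and limma-voom also called 5 of the 9 lower and 0 higher. By level in CPM, the deficient and wild type libraries did not overlap for 6 genes that were lower (the 5 above and Tnfrsf1a) and for 1 that was higher (Casp8). Of all genes, 30.8% were lower in this sense, 31.2% higher and 62% either. In these bulk cultures fewer cells of a type and less RNA per cell cannot be told apart, and the part that the mitosis and cell type markers above have in these differences was not tested.

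**Figure D1:**
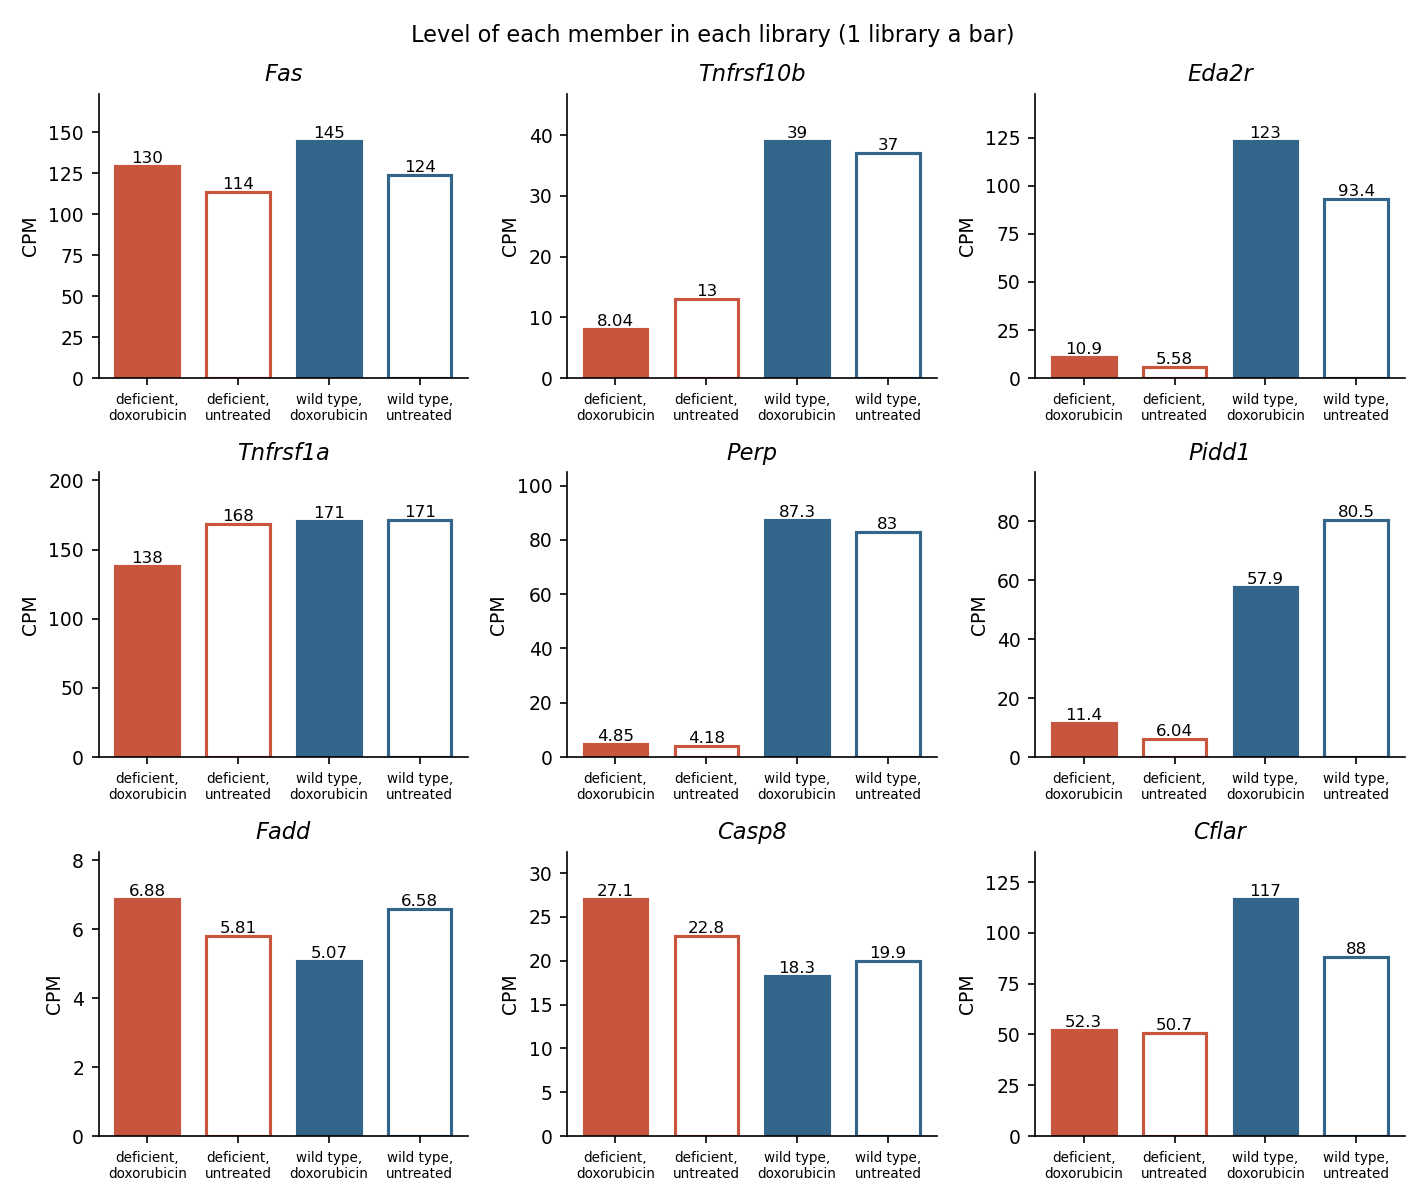
Level of each gene in CPM (vertical axis, from 0, own scale per panel) in the 4 libraries, 1 library a bar, deficient in red and wild type in blue, doxorubicin filled and untreated open. Perp, Eda2r, Pidd1, Tnfrsf10b and Cflar are lower in both red bars than in either blue bar, while Fas and Fadd overlap between genotypes.

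Among the receptors, Eda2r differed most. This gene encodes XEDAR, a receptor for the A2 form of ectodysplasin that has no death domain of its own, and it lies on the X chromosome at chrX:97333840-97377216. It had 215 counts in deficient doxorubicin and 96 in deficient untreated, against 2825 in wild type doxorubicin and 1860 in wild type untreated. Both deficient libraries were far below both wild type libraries, and Eda2r was 13.6-fold lower in the additive test (log2 fold change -3.77, SE 0.221, adjusted p = 6.63e-09). Taken as single libraries, it was 11.4-fold lower with doxorubicin (95% interval 9.88 to 13.1) and 16.7-fold lower untreated (13.6 to 20.8). These intervals, like all those given for ratios of single libraries, cover counting error only.

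Tnfrsf10b, the single TRAIL death receptor gene of the mouse (chr14:69767472-69784411), had 159 counts in deficient doxorubicin and 224 in deficient untreated, against 894 in wild type doxorubicin and 738 in wild type untreated. The genotypes did not overlap, and the gene was 3.71-fold lower in the deficient libraries (log2 fold change -1.89, SE 0.294, adjusted p = 0.00021). The single-library ratios were 4.86-fold lower with doxorubicin (4.10 to 5.79) and 2.85-fold lower untreated (2.45 to 3.32).

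Fas, the receptor for Fas ligand (chr19:34290666-34327772), was not called. It had 2566 counts in deficient doxorubicin and 1955 in deficient untreated, against 3313 in wild type doxorubicin and 2469 in wild type untreated. Scaled to library size these were 129.7 and 113.6 CPM against 144.7 and 124.0 CPM, so the genotypes overlapped, although on TPM they did not. The additive test gave a fold of 0.906 with a 95% interval of 0.742 to 1.11 (adjusted p = 0.509). Tnfrsf1a, the main TNF receptor with a death domain (chr6:125349362-125362484), had 2735 counts in deficient doxorubicin and 2898 in deficient untreated, against 3912 in wild type doxorubicin and 3413 in wild type untreated. That is 138.3 and 168.4 CPM against 170.9 and 171.4 CPM, with the deficient doxorubicin library the lowest and the other three close together. Its log2 fold change was -0.17 (interval -0.445 to 0.114, adjusted p = 0.415).

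Perp and Pidd1 are p53-linked genes that encode neither a receptor nor a part of its complex. Perp, a small tetraspan membrane protein that is a part of desmosomes and was first described as a p53 target in dying cells (chr10:18845020-18857073), showed the largest difference of the 9. It had 96 counts in deficient doxorubicin and 72 in deficient untreated, against 2000 in wild type doxorubicin and 1653 in wild type untreated. The genotypes were well apart, with an 18.9-fold lower level in the deficient libraries (log2 fold change -4.24, SE 0.242, adjusted p = 4.9e-09). The single-library ratios were close to each other, 18.0-fold lower with doxorubicin (14.7 to 22.3) and 19.8-fold lower untreated (15.7 to 25.5).

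Pidd1, the death domain adaptor that assembles the PIDDosome with the adaptor RAIDD (Cradd) and caspase-2, lies at chr7:141438113-141444025. It had 226 counts in deficient doxorubicin and 104 in deficient untreated, against 1326 in wild type doxorubicin and 1604 in wild type untreated. Both deficient libraries were lower, by 8.06-fold in the additive test (log2 fold change -3.01, SE 0.306, adjusted p = 3.08e-06). Here the pairs of libraries gave different sizes, 5.07-fold lower with doxorubicin (4.40 to 5.86) and 13.3-fold lower untreated (10.9 to 16.4). Its partners were not called: Cradd had an adjusted p of 0.769, and Casp2 had 432 and 270 counts in the deficient libraries against 377 and 433 in wild type (adjusted p = 0.962).

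Fadd, the adaptor of the receptor complex (chr7:144577318-144582463), had 136 counts in deficient doxorubicin and 100 in deficient untreated, against 116 in wild type doxorubicin and 131 in wild type untreated. These overlapped, and at this depth the interval of the log2 fold change was wide, from -0.998 to 1.26 (adjusted p = 0.897). Fadd shares 239 exon bases with the antisense gene Faddos, which had 0 to 3 counts, and the kit does not mark strand. Casp8, the initiator caspase (chr1:58795374-58847503), had 535 counts in deficient doxorubicin and 393 in deficient untreated, against 419 in wild type doxorubicin and 397 in wild type untreated. The deficient libraries were at 27.05 and 22.83 CPM, both above the 18.3 and 19.93 CPM of wild type, while on TPM the genotypes overlapped, and the difference was not called (log2 fold change 0.38, SE 0.283, adjusted p = 0.381).

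Cflar, the neighbour of Casp8 on the same chromosome (chr1:58711508-58758884), had 1035 counts in deficient doxorubicin and 873 in deficient untreated, against 2673 in wild type doxorubicin and 1752 in wild type untreated. Both deficient libraries were lower, by 1.97-fold (log2 fold change -0.98, SE 0.169, adjusted p = 0.000526). It was 2.23-fold lower with doxorubicin (2.08 to 2.40) and 1.73-fold lower untreated (1.60 to 1.88). This call was lost when either deficient library was left out: adjusted p was 0.052 without deficient doxorubicin and 0.0621 without deficient untreated, with log2 fold changes of -1.01 and -0.97. The count of all genes called lower was then 500 and 548, against 1648 with all 4.

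**Figure D2:**
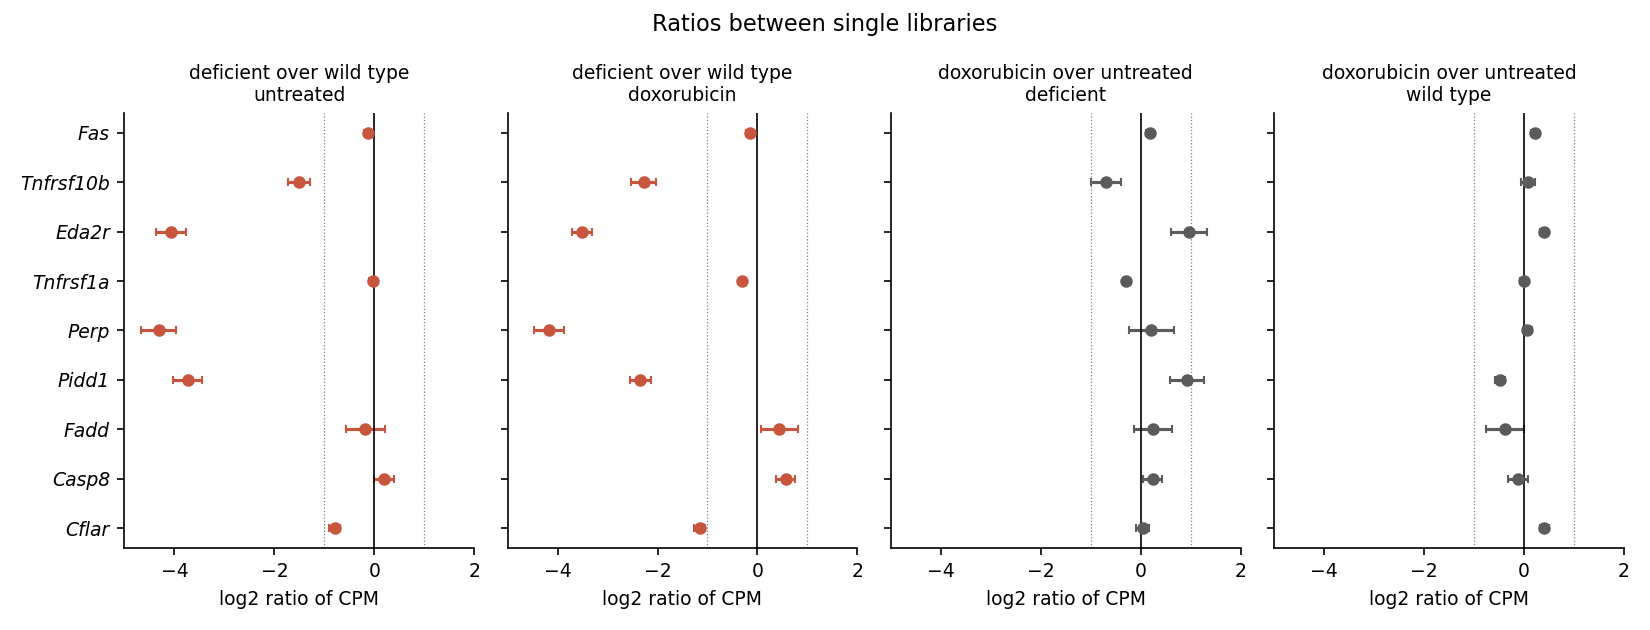
Ratio of CPM between single libraries for each gene on a log2 scale with no pseudocount (horizontal axis), in the 4 comparisons of the design, with bars for the exact conditional binomial 95% interval of counting error and dotted lines at 2-fold. Perp, Eda2r, Pidd1 and Tnfrsf10b lie beyond 2-fold in both genotype panels and Cflar in the doxorubicin one, while the doxorubicin panels hold no point past the lines.

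By size, with at least a 2-fold ratio of CPM after 1 CPM was added, 5 of the 9 genes were lower in deficient than in wild type with doxorubicin and 4 of 9 untreated, Cflar being the gene in the first count and not in the second. On TPM Cflar was under that size with doxorubicin as well, at 1.76-fold lower, which leaves 4 of 9 in both pairs. Of all genes, 9.55% were lower by that size with doxorubicin and 10.2% untreated, and each of these comparisons rests on 1 library a group.

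Levels of different genes were compared on the deposited TPM scale, which divides by transcript length. In all 4 libraries Fas was the highest of the 9, Tnfrsf1a the second and Fadd the lowest. Fas stood at 138.8 and 119.6 TPM in the deficient libraries, against 168.4 and 148.3 TPM in wild type, and Fadd at 2.121 and 1.746 TPM against 1.669 and 2.271 TPM. In wild type the order below Tnfrsf1a was Cflar (72.0 and 62.7 TPM), Perp (69.58 and 69.06), Eda2r (63.91 and 53.11), Pidd1 (26.09 and 42.41), Tnfrsf10b (16.57 and 16.64) and Casp8 (12.02 and 13.22). Cflar overlapped with Perp and with Eda2r in that order, and the other neighbours did not overlap. In the deficient libraries Casp8 stood the fourth, at 16.83 and 13.13 TPM, below Cflar at 40.96 and 38.73 TPM. Tnfrsf10b (3.161 and 5.255 TPM), Pidd1 (4.807 and 3.535), Eda2r (3.414 and 3.922) and Perp (3.611 and 3.033) lay together near the bottom, each overlapping with another. Within each library, Cflar over Casp8 was 2.43 and 2.95 on TPM in the deficient libraries, against 5.99 and 4.74 in wild type. Cflar RNA thus exceeded Casp8 RNA on this scale in every library, and protein was not measured. The ratios did not overlap between genotypes, but the transcript length assumed for Cflar differed between genotypes too, as given below.

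With doxorubicin, 0 of the 9 genes were called in the additive edgeR test, which called 0.16% of all genes. At an unadjusted p under 0.05 the edgeR test had 1 of the 9, Eda2r (log2 fold change 0.64, SE 0.205, unadjusted p = 0.00694, adjusted p = 0.608), and 5.54% of all genes. DESeq2 and limma-voom called 0 of the 9, but no DESeq2 adjusted p was available for Tnfrsf10b, Fadd and Casp8. None of the 9 reached 2-fold in either pair of libraries, where 3.51% of all genes did so in deficient and 9.53% in wild type. The Eda2r ratio of doxorubicin over untreated was 1.95 in deficient (1.53 to 2.51) and 1.32 in wild type (1.25 to 1.40), and this X-linked gene was read across cultures of different sex. Fas had ratios of 1.14 in deficient (1.08 to 1.21) and 1.17 in wild type (1.11 to 1.23). Perp had 1.16 in deficient (0.846 to 1.60) and 1.05 in wild type (0.986 to 1.12). For Cflar the ratios were 1.03 in deficient (0.942 to 1.13) and 1.33 in wild type (1.25 to 1.41), and for Tnfrsf1a 0.821 (0.779 to 0.866) and 0.997 (0.952 to 1.04).

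For 4 genes the ratios of doxorubicin over untreated in CPM lay on opposite sides of 1 in the 2 genotypes, with both intervals off 1 for Pidd1 alone. The share of all genes with ratios on opposite sides is not given here, so the count of 4 cannot be set against it. Over all genes the median log2 ratio was 0.0262 in deficient and -0.00329 in wild type, so small ratios can fall on either side of 1. Pidd1 had a ratio of 1.89 in deficient (1.49 to 2.41) and 0.719 in wild type (0.668 to 0.774). The ratio of these responses was 2.63 (2.06 to 3.36), the only one of the 9 past 2-fold, a size that 13.7% of all genes reached. Tnfrsf10b had 0.618 in deficient (0.501 to 0.760) and 1.05 in wild type (0.955 to 1.16), and on TPM both of its ratios lay under 1, at 0.602 and 0.996. Fadd had 1.18 (0.908 to 1.55) and 0.770 (0.595 to 0.997), and Casp8 had 1.19 (1.04 to 1.35) and 0.918 (0.798 to 1.06). On TPM the Eda2r ratios were on opposite sides of 1 instead, at 0.871 in deficient and 1.203 in wild type. No test of these differences exists, since a model with an interaction leaves no residual degree of freedom.

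The counts and TPM deposited for a gene together give the transcript length that was assumed for it in each library, as count per TPM. Each library was first scaled by its median relative count per TPM over 1291 genes with a single annotated transcript. For Eda2r this length, relative to its mean, was 1.48 in deficient doxorubicin and 0.645 in deficient untreated, against 0.957 and 0.916 in the wild type libraries. That 2.3-fold spread was larger than the spread of 98.7% of 11914 genes. Those genes were not matched to Eda2r, which has 4 annotated transcripts, in transcript number or depth. Perp and Fadd, with 1 annotated transcript each, spread by only 1.01-fold and 1.0-fold. The ratio of doxorubicin over untreated for Eda2r in deficient was 0.871 on TPM and 1.95 on counts, so its direction in the deficient pair depended on the scale. Pidd1 spread by 1.43-fold and Cflar by 1.35-fold, with Cflar at 0.874 and 0.872 in deficient against 1.18 and 1.07 in wild type. The other genes spread by at most 1.05-fold. The genotype differences of Eda2r, Pidd1 and Cflar kept their direction on TPM, at 18.7-fold, 5.43-fold and 1.76-fold lower in deficient with doxorubicin.

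**Figure D3:**
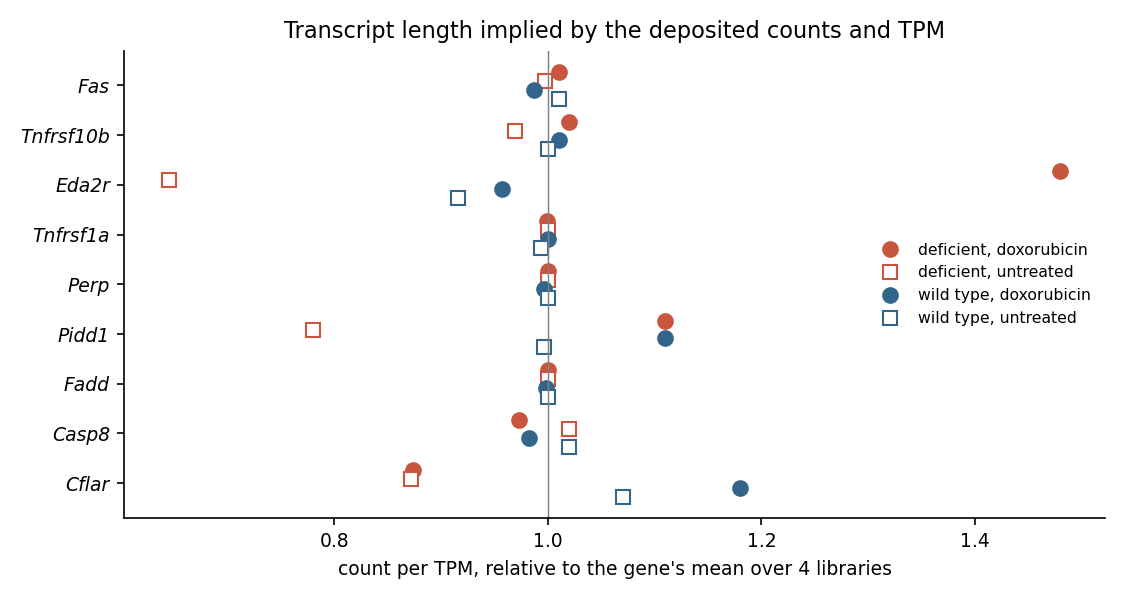
Deposited count divided by deposited TPM for each gene and library, relative to the gene's mean over the 4 libraries (horizontal axis). Each library was first scaled on genes with a single annotated transcript. Deficient is in red and wild type in blue, with doxorubicin as filled circles and untreated as open squares. Eda2r runs from 0.645 to 1.48, while 6 of the genes stay within 1.05-fold.

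The listed ligand genes of the TNF family were scarce. Of 9 ligand genes listed, 4 had a mean of at least 1 CPM, and 0 of these were called by edgeR (1 at an unadjusted p under 0.05, and 1 higher by DESeq2 and by limma-voom). Over all genes, edgeR called 23.2% between genotypes, and 34.5% had an unadjusted p under 0.05. Fasl, the Fas ligand gene, and Lta had 0 counts in all 4 libraries, which allows at most 0.131 to 0.174 CPM. Tnfsf10, encoding TRAIL, had 8 counts in deficient untreated and 0 in the other libraries. Tnf had 25 and 44 counts in the deficient libraries against 35 and 46 in wild type (adjusted p = 0.975). Eda, the ectodysplasin gene, had 87 counts in deficient doxorubicin and 23 in deficient untreated, against 0 in wild type doxorubicin and 5 in wild type untreated (adjusted p = 0.0555). Its level was above both wild type libraries in both deficient ones, where its receptor gene Eda2r was lower, but it did not pass the threshold by edgeR. Of the 4 ligand genes tested, Eda had the largest genotype log2 fold change (4.54, SE 1.62). Its mean of 1.496 CPM came mostly from deficient doxorubicin, at 4.399 CPM, and it passed the filter of 1 CPM only through deficient libraries.

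Among other TNF receptor family genes, 5 of 12 tested were lower in the deficient libraries and 1 was higher, with a median log2 fold change of -0.569. The shares over all genes were 10.6% lower and 12.6% higher. Tnfrsf19, a receptor known as TROY, had 385 and 484 counts in deficient against 1660 and 1738 in wild type (log2 fold change -1.76, adjusted p = 1.03e-05). The mouse decoy TRAIL receptor genes Tnfrsf22 and Tnfrsf23 also fell, with log2 fold changes of -1.82 and -1.31 (adjusted p = 0.00347 and 0.0072). Tnfrsf22 had 104 and 83 counts in deficient against 394 and 366 in wild type. Tnfrsf23 had 206 and 169 counts against 653 and 439. These neighbouring genes are close relatives of each other, so reads may be divided between them. Cd40 had 0 and 30 counts in deficient against 94 and 19 in wild type and was not called (adjusted p = 0.473). Named after their values were seen, Tnfrsf1b (log2 fold change -1.01, adjusted p = 0.0243; 24.37 and 26.03 CPM in deficient against 28.17 in wild type doxorubicin and 90.67 in wild type untreated, the highest by far) and Tnfrsf12a (-0.53, adjusted p = 0.00355) were the other genes lower, and Tnfrsf21, death receptor 6, was the gene higher (0.64, adjusted p = 0.0101).

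In the list of receptor complex and necroptosis genes, 6 of 27 were lower in deficient and 1 was higher, with a median of -0.121. All genes together gave 10.6% lower and 12.6% higher. The necroptosis kinase gene Ripk3 had 107 and 100 counts in deficient against 426 and 400 in wild type (adjusted p = 0.00285). Its substrate gene Mlkl, whose product breaks the membrane, had 78 and 45 counts against 222 and 303 (log2 fold change -1.91, adjusted p = 0.0134). Tnfaip3, encoding the ubiquitin editor A20, had 165 and 109 counts against 587 and 426 (-1.69, adjusted p = 0.00204). Rnf31, a subunit of the linear ubiquitin ligase, had 235 and 130 counts against 405 and 782 (-1.47, adjusted p = 0.0141). The lower genes thus include both executors and brakes of receptor killing. Named after their values were seen, Cyld and Map3k7 were the remaining lower genes, and Pea15a, a death effector domain protein abundant in astrocytes, was the higher one (0.95, adjusted p = 4.75e-08).

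Of 19 caspases and their regulators, 3 were higher and 2 lower in deficient, with a median of 0.046. These counts are close to the shares over all genes, 12.6% higher and 10.6% lower. DESeq2 called 3 higher and 1 lower, and limma-voom 3 higher and 3 lower. Apaf1, the scaffold of the apoptosome, had 240 and 162 counts in deficient against 1140 and 1337 in wild type (log2 fold change -2.43, adjusted p = 6.37e-06). Birc5, encoding survivin and expressed in mitosis, had 2140 and 1504 counts against 93 and 139 (4.17, adjusted p = 2.06e-08), and it rose beside the mitosis genes given above. Casp12, a caspase of the endoplasmic reticulum, had 1263 and 950 counts against 586 and 403 (1.38, adjusted p = 0.000225). Dffb, the caspase-activated nuclease, was not called (adjusted p = 0.0941). Named after their values were seen, Bid was the other gene lower (-0.90, adjusted p = 0.0312) and Parp1 the other higher (0.89, adjusted p = 0.00351).

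Of 7 desmosome partners of Perp tested, 3 were lower in deficient and 1 was higher, with a median of -1.265. Beside these counts, 10.6% of all genes were lower and 12.6% higher. DESeq2 called 2 lower and 1 higher. Ppl, encoding periplakin, had 56 counts in deficient doxorubicin and 1 in deficient untreated, against 197 and 295 in wild type (adjusted p = 0.0138). Pkp3, plakophilin 3, had 0 counts in both deficient libraries, against 105 in wild type doxorubicin and 5 in wild type untreated. With a mean of 1.209 CPM it passed the filter of 1 CPM only through wild type doxorubicin, at 4.586 CPM. Its place among the 3 lower genes thus rests on 1 library and was favoured by the filter. Dsp and Evpl, encoding desmoplakin and envoplakin, were not called (adjusted p = 0.174 and 0.338). Jup (-0.59, adjusted p = 0.044) and Pkp4 (0.99, adjusted p = 0.00385), named after their values were seen, were the other calls. With doxorubicin, edgeR called 0 genes in these 5 lists. At an unadjusted p under 0.05 there were 2 caspase genes, 2 desmosome genes and 1 other TNF receptor gene, and limma-voom called 1 other TNF receptor gene lower. Over all genes edgeR called 0.16% with doxorubicin, and 5.54% had an unadjusted p under 0.05.

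**Figure D4:**
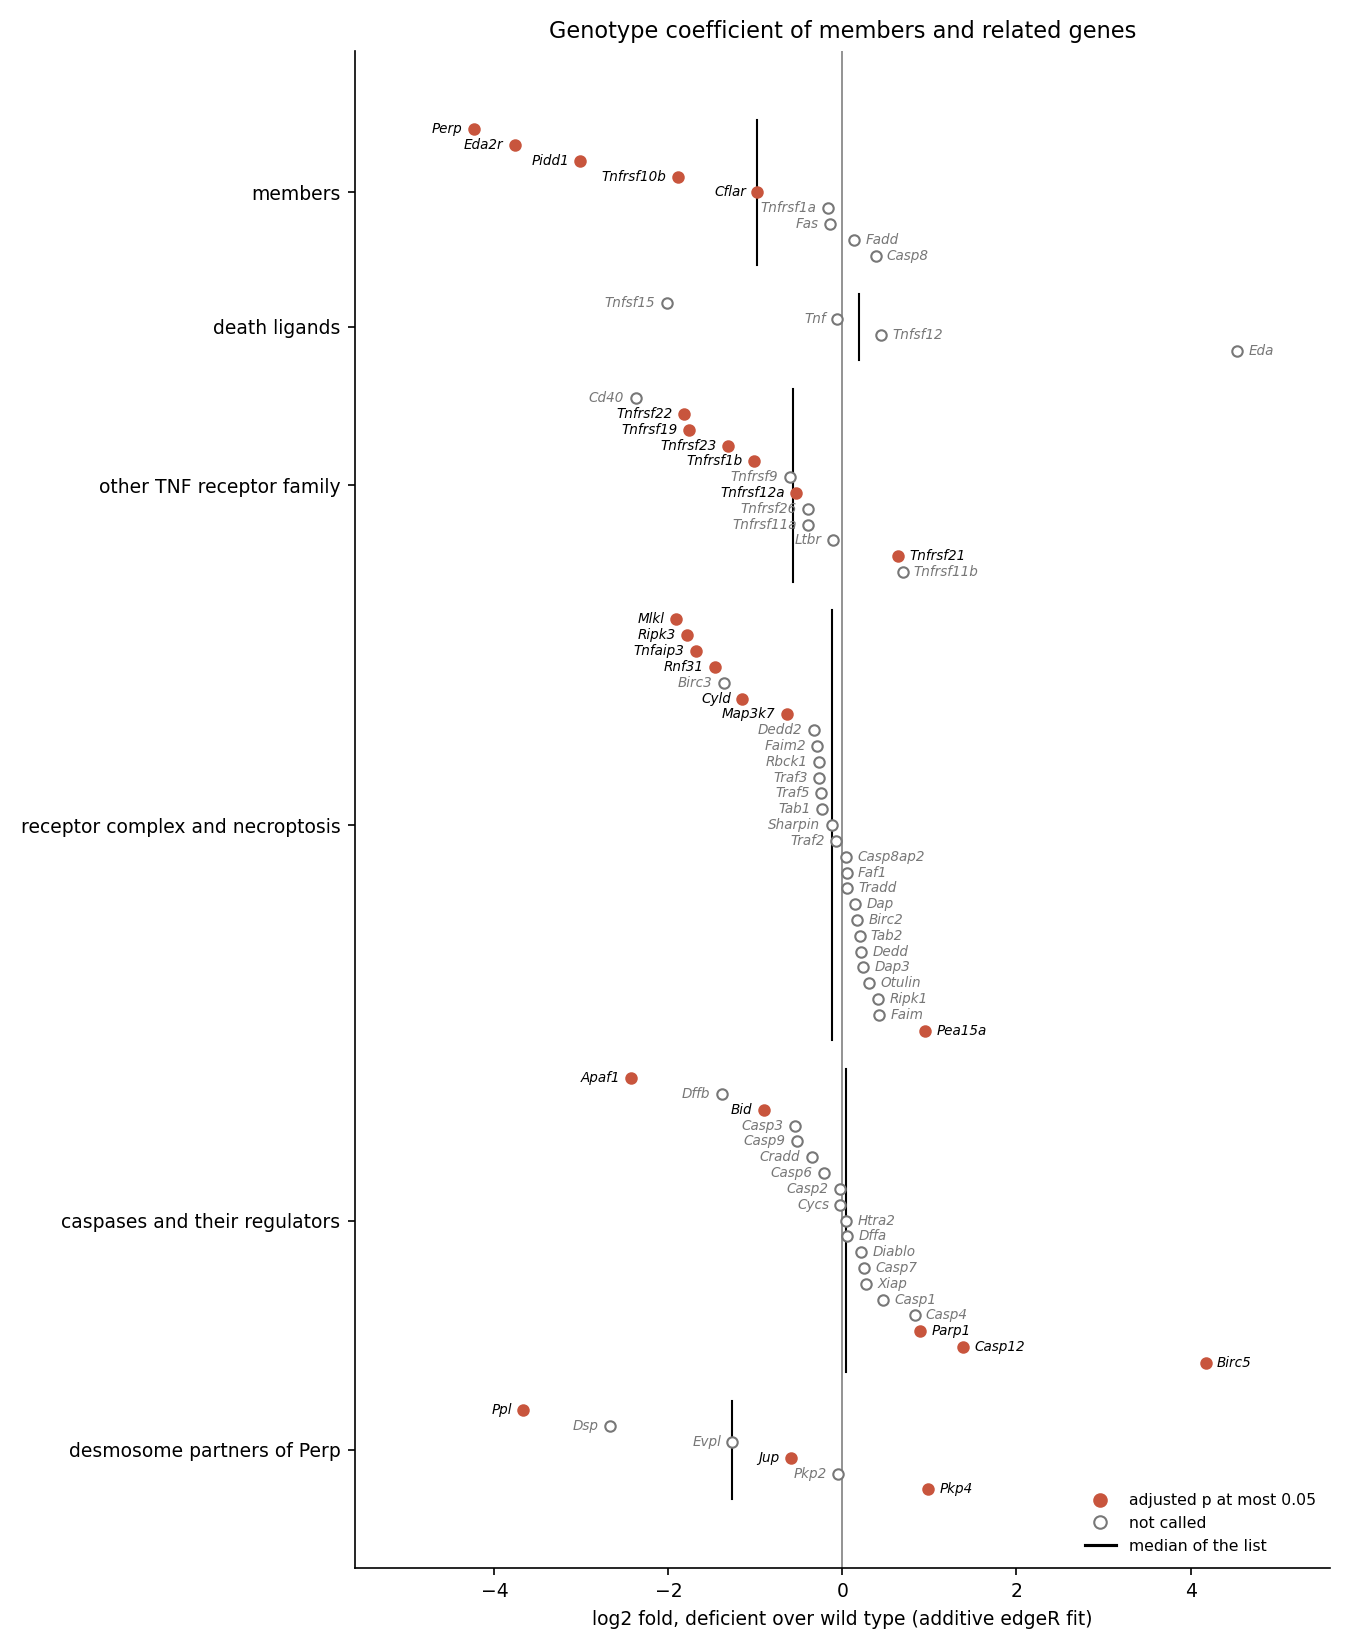
Genotype log2 fold change, deficient over wild type, from the additive edgeR fit (horizontal axis) for the 9 genes and 5 related lists, 1 point a gene, filled where adjusted p is at most 0.05, with a vertical line at the median of each list. Genes under 1 CPM and Pkp3, at 0 counts in deficient, are not drawn. The 9 genes have their median at -0.977, with 5 filled points to the left of 0 and 4 open points near it.

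The genes whose log2 profile over the 4 libraries lay closest to each of the 9, out of 11264 protein-coding genes with a mean of at least 5 CPM, differed in how near they came. Fas was closest to Tufm (Euclidean distance 0.0287), Tnfrsf1a to Rsbn1l (0.0414), Fadd to Rapgef2 (0.0394), Casp8 to Ybx3 (0.0206) and Cflar to Rev1 (0.0236). The 4 genes with larger differences had only looser neighbours. Tnfrsf10b was closest to Dusp4 (0.141), Eda2r to Slc10a4 (0.258), Perp to Acaa1b (0.321) and Pidd1 to Gsta2 (0.428). Acaa1b and Gsta2 have near-identical relatives, so their counts are uncertain. The second neighbour of Pidd1 was Lrrc15 (0.447) and the third was Trp53inp1, a p53-induced gene (0.48). Trp53inp1, named after its values were seen, had 544 and 330 counts in deficient against 4928 and 4632 in wild type. Among themselves, the closest of the 9 were Fadd and Casp8 (0.291) and then Fas and Tnfrsf1a (0.371), and Eda2r and Perp lay 0.636 apart. Each profile was centred on its own mean and not scaled. These distances thus depend on both the size and the shape of the change over 4 libraries, and not on the level. Genes that changed little lie close together for that reason.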

How the data were processed

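RNA was extracted with ISOGEN and made into libraries with the SMART-Seq v4 kit, per the labels' protocols. Per the submitters' processing notes, DRAGEN and GRCm38 were used; software version and annotation release were not given in the sources used here. Per the file headers, the authors deposited an estimated count and a TPM value per gene. Counts, which held fractions in 5810 to 6451 genes per library, were rounded to whole numbers, and the deposited TPM served for levels between genes and as another scale. Of 55487 identifiers, 55227 matched a symbol.

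Counts were scaled to CPM with TMM factors (0.98 to 1.02). An additive model of genotype and treatment was fitted with edgeR 4.0.16 in R 4.3.3 to 15596 genes with a mean of at least 1 CPM. It had 1 residual degree of freedom, a common dispersion of 0.0863 and 14.3 prior degrees of freedom. Ratios of single libraries have exact conditional binomial 95% intervals, the difference of responses has a Wald interval, and neither has a p-value. A count of 0 allows up to 3 counts. Since no molecular identifiers were counted, reads may be copies of one molecule, and intervals and limits cover counting error only.

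The genes and lists were chosen with earlier results of these data known. Beside the 9 genes, up to 4 genes per list with the largest absolute genotype fold change and the 3 nearest profiles per gene were eligible to be named. Alternatives were DESeq2 1.42.0, limma-voom 3.58.1, other scalings, filters, pseudocounts (0.5 and 5 CPM), models without the other label and leaving out each library.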

Additional observations from a re-analysis of the deposited data

Results flagged for a closer look

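For 4 genes the CPM ratios of doxorubicin over untreated lay on opposite sides of 1 in the 2 genotypes, which is why they are listed here, and the difference was not tested. The share of all genes with such ratios is not given, so the count of 4 cannot be set against it. Both counting intervals lay off 1 for Pidd1 alone, and on TPM both Tnfrsf10b ratios lay under 1. As the log2 response in deficient minus that in wild type, after 1 CPM was added, the difference was 1.29 for Pidd1, -0.71 for Tnfrsf10b, 0.53 for Fadd and 0.35 for Casp8. Each response compares 1 library with 1 library of the other sex.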

How the results depend on the processing

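Perp, Eda2r, Pidd1 and Tnfrsf10b kept their genotype direction and call under every alternative of the additive test, with highest adjusted p of 0.000314, 0.000533, 0.0031 and 0.0398. Cflar lost its call without either deficient library, and its adjusted p otherwise stayed under the threshold. Of the values available for the 9 genes under the alternatives of both additive tests, 173 kept direction and side of the threshold. Another 2 lost the call and 20 changed sign, the latter all among values not called. DESeq2 values with doxorubicin were lacking for Tnfrsf10b, Fadd and Casp8. Pidd1 with doxorubicin was -0.30 by limma-voom and -0.32 without the genotype label. Leaving out 1 library gave genotype log2 fold changes of -0.016 to 0.33 for Fadd and -0.24 to 0.0089 for Fas. For doxorubicin it gave -2.16 to 3.57 for Eda2r, -3.14 to 3.44 for Perp, -1.90 to 2.50 for Pidd1, -1.63 to 0.84 for Tnfrsf10b, -0.40 to 0.75 for Cflar, -0.22 to 0.34 for Casp8, -0.29 to 0.15 for Fadd and -0.29 to 0.0084 for Tnfrsf1a, since the model then has no genotype term and a lone library is taken to vary like the others.

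Counts over all genes moved as follows, and the cause was not tested. Leaving out 1 library gave 500 to 2473 genes higher and 500 to 1734 lower between genotypes, and 0 to 0 higher and 0 to 0 lower with doxorubicin. The doxorubicin test called 3 higher and 22 lower. That became 6 higher by DESeq2, 17 and 67 by limma-voom, 22 and 56 with DESeq2 size factors, 10 lower without a filter, 26 and 73 at a mean of 5 CPM, and 0 and 0 without the genotype label. By size, a pseudocount of 0.5 CPM gave 407 higher and 456 lower in the deficient doxorubicin pair. A pseudocount of 5 CPM gave 861 and 629 between genotypes with doxorubicin, 763 and 643 untreated, 15 and 27 with doxorubicin in deficient, 83 and 143 in wild type, and 306 and 174 for the difference of responses. A mean of at least 5 CPM gave 824 lower between genotypes with doxorubicin, 1015 and 880 untreated, 77 and 107 in the deficient pair, 244 and 365 in the wild type pair, and 600 and 387 for the difference. No minimum gave 1024 higher in the wild type pair and 1459 lower for the difference. On TPM the median of all genes moved to -0.207 log2 between genotypes untreated. No paired analysis was possible because each group holds 1 library and the numbers in the titles follow the treatment. Fadd, with 100 to 136 counts, had the widest interval of the 9 genotype fold changes.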
